A study of Mus musculus with 12 samples.

Results

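MPP+ was compared with phosphate-buffered saline (PBS) in primary astrocyte cultures from Arrb2-knockout mice, using the 6 knockout samples of a series of 12. The samples were chosen by their labels alone: 3 knockout samples in MPP+ and 3 knockout samples in PBS, with every expressed gene included. The cultures came from the midbrain of newborn mice, labelled P0–3 and as knockouts of Arrb2, the gene of beta-arrestin 2, and the cultures were labelled Day 14. The first group received MPP+ at 500 µM for 24 h and the second received PBS. The other 6 samples, wild-type astrocytes in MPP+ and in PBS with 3 samples each, entered the same model fit and are given only beside the knockout values. The labels state neither the strain, nor the allele by which Arrb2 was disrupted, nor whether the 3 samples of a group came from separate animals or litters, so the p-values measure the spread between these samples, which may be technical. Mixed glial cultures had been shaken to remove other cells, and the submitters state a purity of over 95% by staining for GFAP.

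MPP+ is the toxic metabolite that astrocytes make from MPTP with monoamine oxidase B, and it blocks complex I, the first proton pump of the respiratory chain. A cell whose mitochondria fail switches on the integrated stress response, in which kinases phosphorylate the translation factor eIF2 alpha, bulk protein synthesis slows, and the transcription factor Atf4 is translated and raises genes for amino acid supply, tRNA charging and, through Ddit3 and Trib3, cell fate. Beta-arrestins bind activated G protein-coupled receptors, stop their G protein signal and carry them into the cell. Astrocytes take up glutamate and potassium, supply neurons with lactate and sterols, and divide in culture when serum is present.

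The libraries held 66645469 to 69865569 counts in the MPP+ group and 68175442 to 69460025 in the PBS group. Reads carry no molecular identifiers, so intervals and floors cover counting error only. Of 32742 genes in the table, 21129 passed a filter on low counts and were tested. Levels are counts per 1000000 counts (CPM) with TMM-scaled library sizes, given for samples 1, 2 and 3 of a group in that order, and fold changes are log2 of MPP+ over PBS with their standard error, n = 3 samples a group. A gene was called, and is said to have risen or fallen, at an adjusted p under 0.05 in edgeR's quasi-likelihood test with Benjamini-Hochberg adjustment over all tested genes. A second rule asks in addition for a change of at least 2-fold. The first principal component of the 6 knockout samples held 62.9% of their variance and separated MPP+ from PBS.

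The targeted gene was measured first. Arrb2 RNA was present in every knockout sample, at 15.1, 12.6 and 12.1 CPM in MPP+ and 14.4, 16.1 and 13.8 CPM in PBS, and the groups overlapped (log2 fold change -0.16 ± 0.16, adjusted p = 0.470). In wild type it had 24.2, 17.2 and 17.5 CPM in MPP+ and 31.0, 26.4 and 21.7 CPM in PBS, so every knockout sample lay below every wild-type sample, and RNA of the gene was present in all of them. The difference between genotypes was not tested. Counts over a whole gene do not show which exons the reads came from, so they do not test the deletion. Arrb1, for the sister protein beta-arrestin 1, had 37.6, 6.21 and 18.5 CPM in MPP+ and 13.2, 13.4 and 14.4 CPM in PBS and was not called (0.60 ± 0.47, adjusted p = 0.328). Of the 7 arrestin genes 2 rose and 1 fell. The fall was in Txnip, which restrains glucose uptake (-1.81 ± 0.15). Arrdc3, an adaptor for receptor ubiquitination, rose to 129, 135 and 109 CPM in MPP+, against 26.0, 31.7 and 48.8 CPM in PBS (1.81 ± 0.29). Sample 1 of each knockout group stood apart in sex-linked RNA: 4 genes of the Y chromosome summed to 43.1, 131.2 and 129.4 CPM in MPP+ and to 39.4, 126.7 and 128.6 CPM in PBS. Counts of calls that lead a paragraph were therefore also made without both samples numbered 1.

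The cultures expressed the defining markers of astrocytes. All 8 tested astrocyte markers were present in every sample, and in PBS they summed to 3016, 3915 and 3191 CPM. Markers of other cells were present too. In PBS, 18 microglia and macrophage markers summed to 825.5 to 1131 CPM, 9 of pericytes and smooth muscle to 3852 to 5583 CPM, 12 of the oligodendrocyte lineage to 549.3 to 594.6 CPM and 11 of neurons to 529.9 to 635.4 CPM. The RNA therefore came from cultures in which transcripts of several cell types were measured, and in such bulk samples fewer cells of a type and less RNA per cell cannot be told apart.

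With TMM scaling nearly as many genes were called higher as lower in MPP+, and the larger changes were more often downward. Of the 21129 tested genes, 10083 (47.7%) were called, 4871 (23.1%) higher and 5212 (24.7%) lower. At least 2-fold, 3968 (18.8%) were called, 1319 (6.24%) higher and 2649 (12.5%) lower. The groups of 3 did not overlap for 59% of all tested genes, 27.9% higher and 31% lower in MPP+. The median log2 fold change over all genes was -0.04, and among called genes the median size was 0.80. With plain library sizes 5487 genes were called higher and 4715 lower, so which side was larger depended on the scaling. Fold changes are relative to the scaling, and a change in total RNA was not measured. Without both samples numbered 1, 4226 genes were called higher and 4223 lower. A count within a gene list is read against these shares.

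Gene classes differed in their balance. Among 15603 protein-coding genes, 28.1% rose and 28.6% fell. Among 2588 long noncoding RNAs, 9.39% rose and 18.9% fell, and the median log2 fold change was -0.28. The 1014 protein-coding genes that rose at least 2-fold had a median level of 3.97 FPKM in MPP+ and 1.33 FPKM in PBS, and the 2049 that fell at least 2-fold had 0.536 FPKM in MPP+ and 2.02 FPKM in PBS. Median gene span was 19246 bases among those that rose, 26423 among those that fell and 24198 over all tested protein-coding genes.

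**Figure D1:**
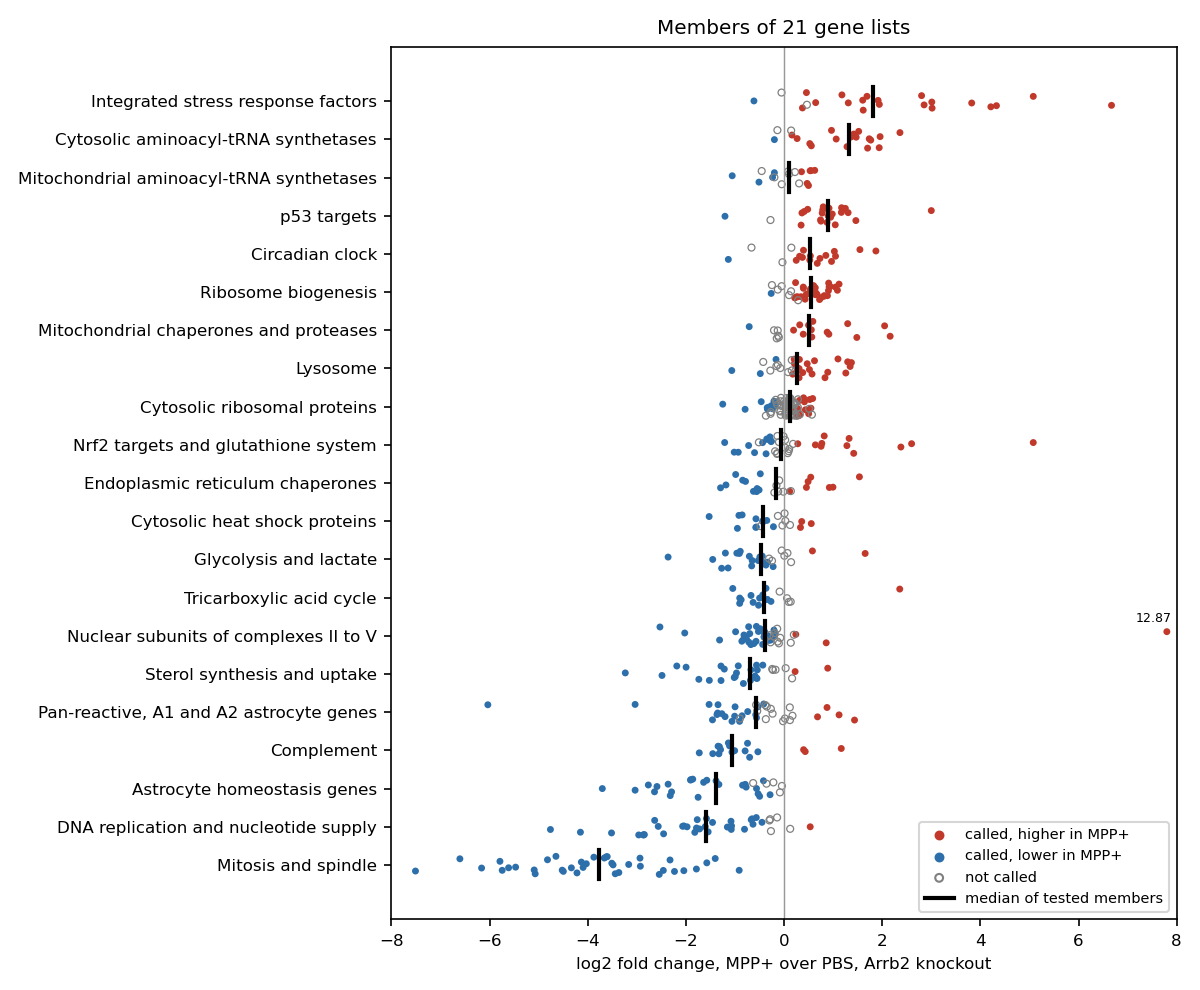
Log2 fold change of MPP+ over PBS in Arrb2-knockout cultures (x axis, linear scale) for the tested members of 21 gene lists (rows). Each dot is a gene, filled red or blue where called higher or lower in MPP+ and open where not called; black bars are list medians, from 1.80 for integrated stress response factors to -3.77 for mitosis genes. Cox6a2, at 12.87, is drawn at the right edge with its value beside it.

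The regulators of the integrated stress response rose almost as a whole. Of its 22 tested factors (23 in the table), 19 rose and 1 fell, 16 rose at least 2-fold, and the median log2 fold change was 1.80, against -0.04 over all genes. Ddit3, which encodes the stress factor CHOP, had 519, 498 and 429 CPM in MPP+ and 23.6, 28.1 and 26.1 CPM in PBS. Its groups lay more than an order of magnitude apart. Trib3, a pseudokinase that Atf4 and CHOP induce together, had 116, 105 and 112 CPM in MPP+ and 1.35, 0.982 and 0.930 CPM in PBS (6.67 ± 0.29, adjusted p = 1.60e-08). Chac1, which degrades glutathione, had 81.0, 74.5 and 73.6 CPM in MPP+ and 2.38, 2.35 and 2.04 CPM in PBS (5.08 ± 0.15). Again no sample of one group came near the other.

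Transcription factors of the pathway rose with its targets. Atf4 itself had 331, 316 and 497 CPM in MPP+ and 125, 123 and 107 CPM in PBS (1.69 ± 0.16), Atf5, a factor of the mitochondrial stress response, rose by 1.94 ± 0.085, and Cebpg, a partner of Atf4, by 1.18 ± 0.085. Nupr1, a chromatin-binding stress protein, had 247, 185 and 241 CPM in MPP+ and 34.5, 36.4 and 25.5 CPM in PBS (2.80 ± 0.28). Feedback arms were among the members that rose. Ppp1r15a (GADD34), which directs removal of the phosphate from eIF2 alpha, had 421, 461 and 364 CPM in MPP+ and 51.2, 53.4 and 50.03 CPM in PBS (3.01 ± 0.23), and Eif4ebp1, which holds back cap-dependent translation, rose by 2.85 ± 0.17. Gadd45a, a growth arrest gene, rose by 3.82 ± 0.19, and Sesn2, which restrains mTORC1 when leucine is short, by 1.60 ± 0.049. The eIF2 kinases moved little by comparison. Eif2ak3 (PERK) and Eif2ak4 (GCN2) rose by 0.37 ± 0.082 and 0.46 ± 0.071, Eif2ak1 (HRI), which senses mitochondrial stress, had -0.05 ± 0.061 and was not called, and Eif2ak2 (PKR) was the member that fell (-0.61 ± 0.097).

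**Figure D2:**
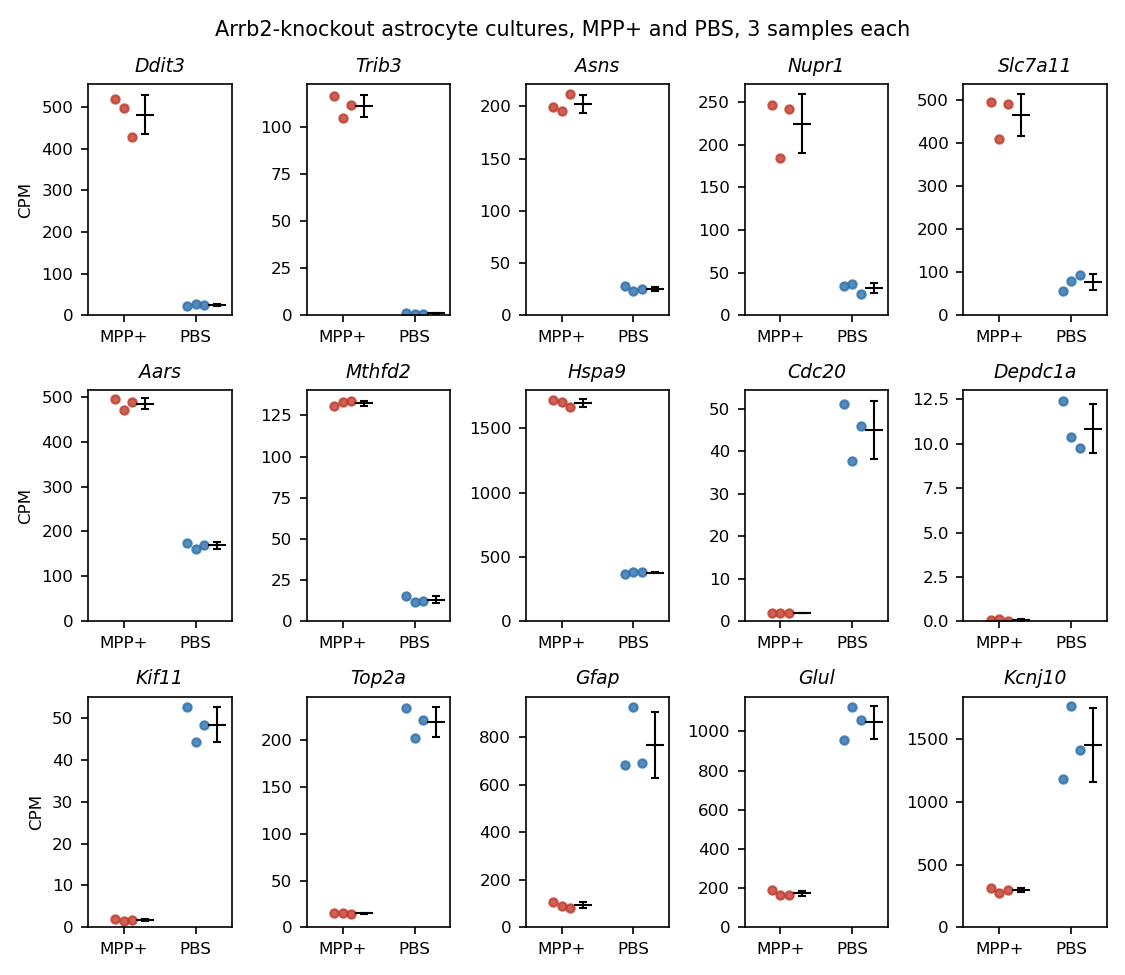
Level (y axis, CPM, linear from 0) of 15 genes in Arrb2-knockout cultures in MPP+ (red, left) and PBS (blue, right). Points are the 3 samples of a group, and the black mark is their mean with its SD; stress and amino acid genes lie higher in every MPP+ sample, and genes of cell division and of astrocyte function lower in every MPP+ sample.

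Promoter sequences were read for genes of this response because Atf4 binds, with C/EBP partners, to a composite element whose letters can be searched. Of the 22 tested factors, 20 had a promoter window in RefSeq (GRCm38.p6), from 250 bases before to 50 bases after the gene's start. The letters TGATGNAA, on either strand, occurred in 6 of these 20 windows, in 5 of 12 windows of cytosolic aminoacyl-tRNA synthetases (41.7%), in 48 of 835 windows of genes that rose at least 2-fold (5.75%) and in 387 of 13239 windows over all tested genes (2.92%). Among 1759 windows of genes that fell at least 2-fold the share was 3.41%, and among 14 windows of serine and folate enzymes, a group with strong rises, it was 0. The searched letters were chosen with results of these data known, and a match is a description of the sequence, not a bound site. The promoters of 4 genes are printed from 120 bases before to 30 after the start, 5′ to 3′ on the gene's strand, with the matches in capitals. They are Asns at chr6:7693180-7693329 on the minus strand, Nupr1 at chr7:126625441-126625590 on the minus strand, Slc7a11 at chr3:50443584-50443733 on the minus strand and Aars at chr8:111033722-111033871 on the plus strand.
Asns: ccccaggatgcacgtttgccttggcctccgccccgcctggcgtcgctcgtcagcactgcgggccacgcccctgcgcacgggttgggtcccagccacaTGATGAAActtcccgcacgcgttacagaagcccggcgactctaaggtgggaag
Nupr1: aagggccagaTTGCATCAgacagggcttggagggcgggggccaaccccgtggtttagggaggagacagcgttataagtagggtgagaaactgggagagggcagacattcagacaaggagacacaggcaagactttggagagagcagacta
Slc7a11: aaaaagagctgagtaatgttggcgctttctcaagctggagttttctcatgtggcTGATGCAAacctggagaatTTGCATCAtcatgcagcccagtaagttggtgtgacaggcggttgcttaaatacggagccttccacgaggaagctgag
Aars: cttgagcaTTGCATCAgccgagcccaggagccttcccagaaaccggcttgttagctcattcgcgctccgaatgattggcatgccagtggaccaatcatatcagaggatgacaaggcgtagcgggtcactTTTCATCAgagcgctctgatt
The match began 23 bases before the start in Asns and 110 bases before it in Nupr1. Slc7a11 held a pair of matches, 66 and 47 bases before the start and on opposite strands. In Aars one match began 112 bases before the start and another 9 bases after it.

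Each of these 4 genes rose. They were picked by hand with results of these data known, so their rises do not test the element. Asns, asparagine synthetase, had 199, 195 and 211 CPM in MPP+ and 27.7, 23.4 and 24.9 CPM in PBS (3.00 ± 0.090). Slc7a11, the cystine importer, had 495, 410.2 and 491 CPM in MPP+ and 56.9, 80.2 and 93.3 CPM in PBS (2.60 ± 0.25). Aars, which charges tRNA with alanine, had 494, 471 and 488 CPM in MPP+ and 175, 161 and 171 CPM in PBS (1.52 ± 0.056). The groups did not overlap for any of them.

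Charging enzymes of the cytosol rose while those of the mitochondrion did not as a list. Of 20 tested cytosolic aminoacyl-tRNA synthetases, 17 rose and 1 fell, 12 rose at least 2-fold, and the median log2 fold change was 1.32. Wars, for tryptophan, had 230.5, 232 and 236 CPM in MPP+ and 41.1, 47.1 and 47.7 CPM in PBS (2.36 ± 0.076), and Gars, for glycine, rose by 1.94 ± 0.071. Dars and Hars, for aspartate and histidine, had -0.14 ± 0.064 and 0.14 ± 0.057 and were not called, and Qars, for glutamine, fell by a small amount (-0.20 ± 0.061), a call that was lost without any one of 4 libraries, knockout MPP+ 2 and 3 and PBS 1 and 2. Of 17 mitochondrial synthetases 6 rose and 4 fell, none rose 2-fold, and the median was 0.10. Nars2, for asparagine, had the largest rise (0.62 ± 0.12) and Sars2, for serine, the largest fall (-1.06 ± 0.15). Without both samples numbered 1, 3 rose and 2 fell, and 2 fell also without any one of knockout MPP+ 1, the 3 knockout PBS samples and the 3 wild-type PBS samples. The difference between these lists was not tested.

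Enzymes that make serine, glycine and one-carbon units showed the largest rises at their mitochondrial steps. Of 17 tested members 8 rose and 7 fell. Mthfd2, a mitochondrial folate dehydrogenase, had 131, 133 and 134 CPM in MPP+ and 15.5, 11.8 and 12.3 CPM in PBS (3.32 ± 0.13). Aldh1l2, the mitochondrial enzyme that releases carbon dioxide from formyl-folate, had 252, 251 and 226 CPM in MPP+ and 21.4, 22.1 and 27.4 CPM in PBS (3.36 ± 0.11). Both separated the groups without overlap. Psph, which completes serine synthesis, rose by 2.44 ± 0.085, Shmt2, which makes glycine in mitochondria, by 2.13 ± 0.072 and Phgdh, the entry step, by 1.24 ± 0.060. Among the members that fell were Gldc, which breaks glycine down (-1.28 ± 0.073), and Mtr, methionine synthase (-0.42 ± 0.059). Aldh1l1, the cytosolic relative of Aldh1l2 and an astrocyte marker, fell (-0.42 ± 0.090).

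Of 20 enzymes of asparagine, proline, glutamate and sulphur amino acids, 12 rose and 6 fell. Besides Asns, the proline enzymes Aldh18a1 (2.23 ± 0.056) and Pycr1 (2.64 ± 0.25), cystathionine lyase Cth (2.46 ± 0.089) and Bcat1, which starts the breakdown of branched-chain amino acids (3.61 ± 0.24), rose at least 4-fold. Glul, glutamine synthetase, which in astrocytes turns glutamate into glutamine for neurons, had the largest fall, with 189.7, 166 and 165 CPM in MPP+ and 958, 1125 and 1056 CPM in PBS (-2.59 ± 0.073). Of 26 amino acid transporters 11 rose and 6 fell, and 8 rose at least 2-fold. Slc7a3, a transporter of arginine and lysine, had 49.5, 45.0 and 42.2 CPM in MPP+ and 1.62, 1.61 and 1.80 CPM in PBS (4.76 ± 0.24). Slc6a9, a glycine transporter, rose by 3.24 ± 0.091, Slc1a5, for glutamine and other neutral amino acids, by 3.03 ± 0.16, and Slc3a2, the heavy chain that several of these importers share, had 1276, 1156 and 1083 CPM in MPP+ and 387, 363 and 380.0 CPM in PBS (1.64 ± 0.064). Transporters that fell included Slc38a3 (-0.77 ± 0.058), through which astrocytes release glutamine, and the taurine transporter Slc6a6 (-0.84 ± 0.074).

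Folding genes split by compartment. Of 19 mitochondrial chaperones and proteases 13 rose and 1 fell. Hspa9, the mitochondrial Hsp70 that pulls proteins into the matrix, had 1721, 1704 and 1662 CPM in MPP+ and 372, 381 and 384 CPM in PBS, and Lonp1, a matrix protease, had 329, 348 and 309 CPM in MPP+ and 79.0, 80.8 and 78.6 CPM in PBS. Dnaja3 and Grpel2, co-chaperones of Hspa9, rose by 1.48 ± 0.060 and 1.30 ± 0.098, and Hspd1, the Hsp60 chaperonin, by 0.88 ± 0.057. Of 23 chaperones of the endoplasmic reticulum 7 rose and 10 fell. Manf, a secreted chaperone that protects dopamine neurons, fell to 61.3, 52.2 and 54.7 CPM in MPP+, against 156, 127 and 129 CPM in PBS (-1.29 ± 0.12), and Pdia4 (-0.84 ± 0.052) and Calr (-0.62 ± 0.065) fell as well, whereas Herpud1, which helps clear misfolded proteins, rose (1.54 ± 0.088). Of 21 cytosolic heat shock genes 3 rose and 12 fell, with Bag3, an Hsp70 co-chaperone, at -0.85 ± 0.082 and Hspa8, the constitutive Hsp70, at -0.57 ± 0.092.

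The mitochondrial genome is copied into long transcripts that are then cut at the transfer RNAs lying between its genes, and all of its 13 messenger RNAs encode subunits of the respiratory chain or of ATP synthase. RNA from these genes changed class by class. Messenger RNAs of the mitochondrial genome took 1.55 ± 0.236% of counts in MPP+ and 6.45 ± 0.802% in PBS (SD, n = 3 each). Mitochondrial ribosomal RNAs took 8.06 ± 0.927% of counts in MPP+ and 0.0802 ± 0.000376% in PBS. All mitochondrial genes together took 9.63 ± 1.08% in MPP+ and 6.54 ± 0.803% in PBS. Each of these differences had an exact permutation p of 0.1, two-sided, the smallest that 3 against 3 allows. Libraries were made from mRNA, so these are shares of captured RNA. Whether capture of ribosomal and transfer RNAs differed between MPP+ and PBS was not tested.

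Along the genome the rise was limited to a few genes. mt-Tf, the transfer RNA for phenylalanine at the start of the heavy-strand transcripts, had 82.3, 75.1 and 64.2 CPM in MPP+ and 0.329, 0.253 and 0.244 CPM in PBS. mt-Rnr1, the small ribosomal RNA, had 16248, 20132 and 15582 CPM in MPP+ and 215, 229 and 223 CPM in PBS, and mt-Rnr2, the large one, had 61481, 69989 and 55659 CPM in MPP+ and 622, 594 and 612 CPM in PBS. These genes and mt-Tv between them rose by log2 fold changes of 5.81 to 8.06. mt-Tl1, the next gene after mt-Rnr2, fell (-1.44 ± 0.11). Of 22 tested transfer RNA genes 7 rose and 9 fell, and without both samples numbered 1, 4 rose and 8 fell. Beyond mt-Tf and mt-Tv, the largest rises were in mt-Tt, for threonine, with 81.9, 54.9 and 68.0 CPM in MPP+ and 0.628, 0.521 and 0.747 CPM in PBS (6.75 ± 0.35), and in mt-Tw, for tryptophan (2.96 ± 0.18). mt-Tp, the neighbour of mt-Tt on the other strand, fell (-1.91 ± 0.16).

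Among the 13 mitochondrial messenger RNAs, those of complex I included deep falls and also the shallowest one. Of the 13, 12 fell, each at least 2-fold, and 1 rose. mt-Co1, a core subunit of cytochrome oxidase, had 2098, 2226 and 1985 CPM in MPP+ and 22924, 22992 and 25188 CPM in PBS (-3.49 ± 0.087). Among the 7 genes of complex I the log2 fold changes ran from -3.19 ± 0.13 for mt-Nd6, encoded on the light strand, over -2.76 ± 0.12 for mt-Nd5 to -1.15 ± 0.17 for mt-Nd4. mt-Atp6, a subunit of ATP synthase, was the one called higher, with 928, 1956 and 1733 CPM in MPP+ and 470.1, 676 and 986 CPM in PBS, and its call was lost without knockout MPP+ 2 or PBS 1 (log2 fold change between 0.91 and 1.44, adjusted p up to 0.0594). It overlaps mt-Atp8, which fell (-2.20 ± 0.37), and mt-Nd4 overlaps mt-Nd4l. Whether the authors counted by strand is not given in the sources used here, so reads of overlapping genes may be split between them, and copies of mitochondrial genes in the nucleus may take some.

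**Figure D3:**
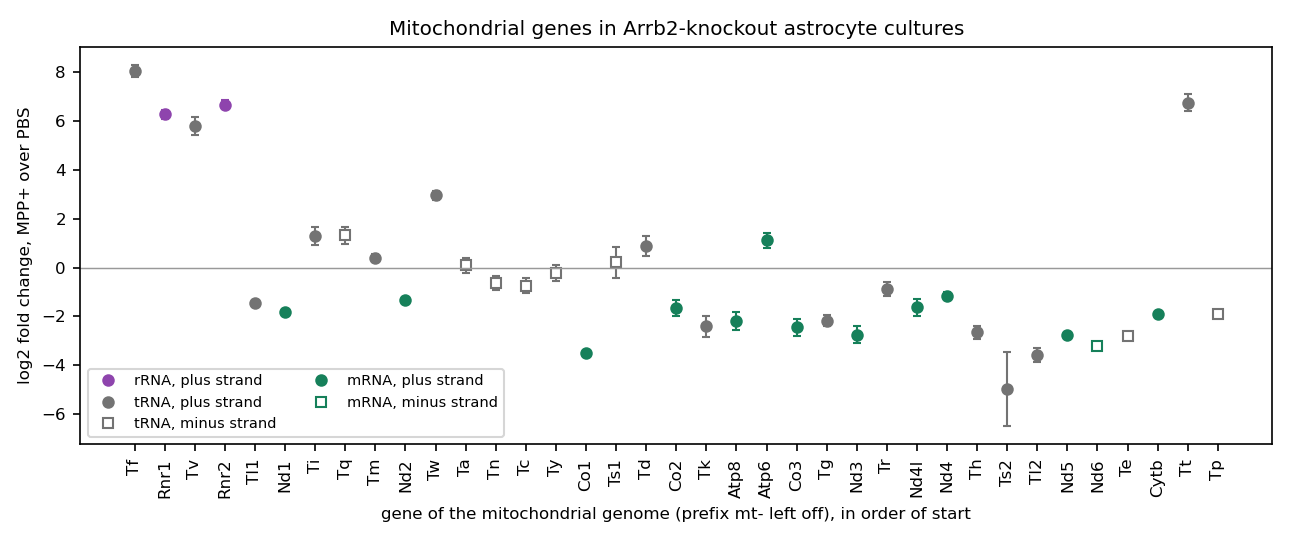
Log2 fold change of MPP+ over PBS (y axis, linear scale) for 37 genes of the mitochondrial genome in Arrb2-knockout cultures, in order of their start (x axis). Circles are genes on the plus strand and open squares on the minus strand, and bars are standard errors; the first 4 genes and mt-Tt lie above 5, and messenger RNAs other than mt-Atp6 lie below 0.

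Nuclear genes that serve mitochondrial RNA rose more often than they fell. Of 36 tested genes of mitochondrial transcription and RNA handling, 17 rose and 3 fell. Twnk, the helicase that unwinds mitochondrial DNA, had 40.4, 43.5 and 38.4 CPM in MPP+ and 16.3, 15.4 and 15.5 CPM in PBS (1.38 ± 0.080), and Top1mt, the mitochondrial topoisomerase, rose by 1.34 ± 0.14. Lrpprc, which stabilises mitochondrial messenger RNAs, rose by 0.86 ± 0.066. Polrmt, the mitochondrial RNA polymerase, and Tfam, which packages the genome and starts its transcription, were not called (0.03 ± 0.096 and 0.14 ± 0.088). Of 77 mitochondrial ribosomal proteins 39 (50.6%) rose and 11 fell, with a median of 0.26, so the shift was wide and small. The falls numbered 5 without knockout MPP+ 3 or PBS 1 and 7 without PBS 2 or PBS 3.

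Subunits that the nucleus supplies to the respiratory chain fell more often than they rose, mostly by small amounts. Of 44 tested subunits of complexes II to V (45 in the table), 3 rose and 31 (70.5%) fell, with a median of -0.40. The largest fall was in Cox7a1, an isoform gene of cytochrome oxidase (-2.53 ± 0.44). Uqcrh of complex III (-1.31 ± 0.088) and Sdhd of complex II (-0.86 ± 0.067) fell too, while Uqcrq of complex III rose (0.86 ± 0.15). Of 39 complex I subunits 5 rose and 15 fell, with a median of -0.14. Within complex I, 2 rose without knockout MPP+ 1 and 9 fell without PBS 1. The largest rises in both lists were in isoform genes too. In complex I it was Ndufa4l2, a relative of Ndufa4 known to be induced by low oxygen, with 0.808, 0.461 and 0.987 CPM in MPP+ and 0, 0.0595 and 0.122 CPM in PBS (called higher, adjusted p = 0.0282). Its call was lost without any one of knockout MPP+ 1, MPP+ 3, PBS 1 and PBS 2 (adjusted p up to 0.0756). Cox6a2, the heart and muscle form of a cytochrome oxidase subunit, had 14.8, 13.1 and 13.5 CPM in MPP+ and no counts in any PBS sample. It was at least 918-fold higher, against a floor of 3 counts over the PBS group. Cox6a1, the form that most tissues use, had 71.3, 68.6 and 57.4 CPM in MPP+ and 84.9, 71.2 and 69.1 CPM in PBS and was not called (-0.19 ± 0.12).

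Enzymes of glucose breakdown fell with them. Of 26 genes of glycolysis and lactate 2 rose and 18 (69.2%) fell, and of 18 genes of the tricarboxylic acid cycle 1 rose and 13 (72.2%) fell. Aldoc, the brain aldolase that marks astrocytes, had 72.6, 52.5 and 60.8 CPM in MPP+ and 297, 356 and 303 CPM in PBS (-2.36 ± 0.12). Eno1 fell to 379, 318 and 364 CPM in MPP+, against 1039, 894 and 971 CPM in PBS (-1.45 ± 0.10), while Eno2, the form that neurons use, rose to 65.9, 62.2 and 49.3 CPM in MPP+, against 18.2, 19.4 and 18.8 CPM in PBS (1.65 ± 0.19). Ldha, which makes lactate, fell (-1.27 ± 0.094), and so did Idh2 of the cycle in mitochondria (-1.04 ± 0.15). Pck2, the mitochondrial enzyme that makes phosphoenolpyruvate, was the one member of the cycle list that rose (2.36 ± 0.12). Genes that low oxygen induces did not move one way: of 20, 7 rose and 7 fell, with the growth factor Vegfa at 2.20 ± 0.068 and the oxygen sensor target Car9 at -1.29 ± 0.20. Of 19 genes of mitophagy, fusion and fission 8 rose and 4 fell, with Mief1, a fission adaptor, at 0.79 ± 0.074 and Fis1, another, at -0.81 ± 0.058, and Pink1, a kinase of mitophagy, was not called (-0.21 ± 0.096). Without both samples numbered 1, 5 of the 19 rose.

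Genes of mitosis fell as a whole. All 38 tested genes of mitosis and the spindle fell, 37 of them at least 2-fold, and the median log2 fold change was -3.77, where 24.7% of all tested genes fell. The count was also 38 without both samples numbered 1. Cdc20, which activates the complex that starts anaphase, had 2.07, 2.03 and 1.87 CPM in MPP+ and 51.3, 37.8 and 46.1 CPM in PBS (-4.50 ± 0.12). Kif11, the motor that separates the spindle poles, had 1.90, 1.41 and 1.81 CPM in MPP+ and 52.5, 44.2 and 48.3 CPM in PBS (-4.82 ± 0.21). In both genes the groups lay more than an order of magnitude apart. Top2a, the topoisomerase of dividing cells, had 15.3, 15.3 and 14.2 CPM in MPP+ and 234, 203 and 221 CPM in PBS (-3.88 ± 0.11), and Plk1, a mitotic kinase, fell (-5.09 ± 0.15). Cdk1, the kinase that drives entry into mitosis, fell less, with 22.3, 20.7 and 19.8 CPM in MPP+ and 63.5, 47.3 and 55.3 CPM in PBS (-1.40 ± 0.14), and Incenp, of the chromosomal passenger complex, was the member under 2-fold (-0.91 ± 0.11).

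Promoters of this group carry a short element, the cell cycle genes homology region (CHR), through which the DREAM and MuvB complexes act. The letters TTTGAA, on either strand, occurred in 22 of 31 promoter windows of mitosis genes (71.0%), in 5 of 31 windows of replication genes (16.1%) and in 2006 of 13239 windows over all tested genes (15.2%). CCAAT, the box that NF-Y binds, occurred in 22 of the 31 mitosis windows and in 42.2% of all windows. GGCGGGAA, an E2F site, occurred in 6 of the 31 replication windows (19.4%), in none of the mitosis windows and in 4.18% of all windows. These letters too were chosen with results of these data known, and a match is not a bound site. The promoters of 4 genes, also picked by hand with results known, are printed from 120 bases before to 30 after the start. The CHR letters are in capitals. They are Cdc20 at chr4:118437314-118437463 on the minus strand, Depdc1a at chr3:159495313-159495462 on the plus strand, Kif11 at chr19:37376262-37376411 on the plus strand and Top2a at chr11:99024160-99024309 on the minus strand.
Cdc20: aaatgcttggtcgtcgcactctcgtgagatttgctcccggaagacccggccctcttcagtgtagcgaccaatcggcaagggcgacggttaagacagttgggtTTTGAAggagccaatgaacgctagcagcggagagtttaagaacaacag
Depdc1a: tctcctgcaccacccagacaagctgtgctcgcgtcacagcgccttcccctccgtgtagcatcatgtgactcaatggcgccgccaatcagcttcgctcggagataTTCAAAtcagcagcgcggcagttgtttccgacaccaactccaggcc
Kif11: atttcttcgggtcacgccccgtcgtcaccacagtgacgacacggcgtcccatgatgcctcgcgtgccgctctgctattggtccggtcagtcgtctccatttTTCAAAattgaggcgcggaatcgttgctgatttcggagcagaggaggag
Top2a: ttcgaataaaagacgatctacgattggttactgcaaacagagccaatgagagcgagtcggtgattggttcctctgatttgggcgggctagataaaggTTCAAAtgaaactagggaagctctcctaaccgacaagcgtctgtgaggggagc
The match began 18 bases before the start in Cdc20, 16 in Depdc1a, 19 in Kif11 and 23 in Top2a. The position was not the same in every promoter read. Cdk1, not printed, held matches 71 and 15 bases before the start, and Mki67, not printed, 116 and 98 bases before it. Depdc1a, a transcription corepressor of dividing cells, had the deepest fall of the 4 printed genes. It had 0.0567, 0.115 and 0 CPM in MPP+ and 12.4, 10.4 and 9.78 CPM in PBS (-7.51 ± 0.45).

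Of 37 tested genes of DNA replication and nucleotide supply 31 (83.8%) fell, 25 at least 2-fold, and 1 rose. Cdc6, which loads the replicative helicase, fell (-4.76 ± 0.39), Rrm2, the inducible subunit of ribonucleotide reductase, had 11.9, 14.3 and 12.4 CPM in MPP+ and 109.5, 80.6 and 87.7 CPM in PBS (-2.85 ± 0.14), and Pcna, the sliding clamp, fell (-1.07 ± 0.068). The helicase subunits were not alike: Mcm3 (-2.56 ± 0.17), Mcm4 (-1.77 ± 0.060), Mcm5 (-2.96 ± 0.10) and Mcm6 (-2.07 ± 0.082) fell, while Mcm2 (-0.30 ± 0.12) and Mcm7 (0.12 ± 0.090) were not called. E2f1, a factor that starts replication genes, was the member that rose (0.53 ± 0.097). Of 58 tested replication-dependent histone genes (68 in the table) 26 (44.8%) fell and 3 rose. These genes are near-identical copies whose reads may have been split, so single members are uncertain, and with a stricter filter on low counts 16 fell.

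Targets of p53 rose nearly as a list. Of 24 p53 targets 22 (91.7%) rose and 1 fell, 8 rose at least 2-fold, and the median was 0.89. Cdkn1a, which encodes the cell cycle inhibitor p21, had 887, 928 and 849 CPM in MPP+ and 508, 381 and 405 CPM in PBS (1.04 ± 0.096). Gdf15, a secreted stress hormone that Atf4 also induces, had 51.5, 52.6 and 33.1 CPM in MPP+ and 7.87, 4.82 and 4.45 CPM in PBS (3.00 ± 0.34). Perp, a membrane protein of p53-driven death, rose by 1.46 ± 0.19, Btg2, an antiproliferative factor, by 1.17 ± 0.10, and Ccng1, cyclin G1, by 0.80 ± 0.060. Sesn1 was the target that fell (-1.20 ± 0.068). Genes that control entry into the cycle went both ways, with 7 of 20 cyclins, kinases, inhibitors and Rb genes higher and 9 lower. Ccnd1, cyclin D1, had 1867, 1872 and 2109.7 CPM in MPP+ and 3959, 3534 and 4099 CPM in PBS (-0.99 ± 0.068), and Ccne2, cyclin E2, fell (-3.07 ± 0.21), as did Cdkn1c, the inhibitor p57 (-1.65 ± 0.27), while Myc rose (1.06 ± 0.13). Of 16 genes of the Bcl2 family 7 rose and 1 fell (0 without any one of knockout MPP+ 2, MPP+ 3, PBS 1 and PBS 3), and those that rose stood on both sides of cell survival, with the protective Bcl2l1 at 1.64 ± 0.38 and the death-promoting Bid at 1.56 ± 0.072. Hrk, a death-promoting member known from neurons, had 1.998, 1.46 and 2.93 CPM in MPP+ and 0.0599, 0.0595 and 0.0610 CPM in PBS (5.10 ± 0.39).

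Ribosome genes moved by layer. Of 37 genes of ribosome biogenesis 30 (81.1%) rose and 1 fell, with a median of 0.54. Noc2l, a nucleolar export factor, rose by 1.09 ± 0.060, Rrp9 by 1.12 ± 0.11, and Fbl, the methylase of ribosomal RNA, by 0.55 ± 0.075. Of 86 tested cytosolic ribosomal proteins (88 in the table) 19 (22.1%) rose and 10 (11.6%) fell, a share of rises near that of all genes, and the counts moved under other settings. Without any one library 10 to 26 rose, the fewest without knockout MPP+ 2 and the most without PBS 1, 4 to 10 fell, the fewest without MPP+ 3, and with plain library sizes 30 rose. Pseudogene copies of these genes may share their reads. Of 17 tested host transcripts of small nucleolar RNAs (18 in the table) 10 rose and 3 fell. Gas5, a host whose spliced RNA is degraded when translation runs, had 227, 235 and 201 CPM in MPP+ and 97.9, 94.8 and 99.2 CPM in PBS (1.19 ± 0.086), Snhg15 rose by 2.09 ± 0.12 and Snhg12 by 1.52 ± 0.22.

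Antioxidant genes went both ways, as did all tested genes. Of 36 tested targets of Nrf2 and genes of the glutathione system 11 (30.6%) rose and 12 (33.3%) fell. Over all tested genes 23.1% rose and 24.7% fell, and the medians were -0.06 for the list and -0.04 for all genes. Hmox1, which breaks down heme, had 1357, 1144 and 1212 CPM in MPP+ and 265, 212 and 236 CPM in PBS. Txnrd1, thioredoxin reductase, rose by 1.33 ± 0.097, Srxn1, sulfiredoxin, by 1.42 ± 0.15, and Gpx4, which reduces lipid peroxides, had 816, 843 and 719 CPM in MPP+ and 334, 333 and 312 CPM in PBS (1.28 ± 0.086). Gpx1, the main glutathione peroxidase of the cytosol, went the other way, with 129, 118 and 123 CPM in MPP+ and 303, 283 and 271 CPM in PBS (-1.21 ± 0.062). Nfe2l2, which encodes Nrf2, and its classic target Nqo1 were not called (0.09 ± 0.064 and 0.18 ± 0.12). All 3 metallothioneins fell, among them Mt3, the form of the brain (-1.27 ± 0.096), and Ftl1, the light chain of ferritin, rose to 1654, 1501 and 1266 CPM in MPP+, against 808, 725 and 780.1 CPM in PBS (0.93 ± 0.16).

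Lysosomal genes rose and sterol genes fell. Of 34 lysosomal genes 22 (64.7%) rose and 3 fell, with 1 fall without any one of 5 libraries. Ctsl, a protease of the lysosome, had 1015, 1009.9 and 949 CPM in MPP+ and 393, 383 and 372 CPM in PBS (1.37 ± 0.068), Atp6v1b2, a subunit of the proton pump, rose by 1.30 ± 0.13, and Neu1, a sialidase, by 1.35 ± 0.11. Of 28 autophagy genes 15 (53.6%) rose and 3 fell, with Sqstm1 (p62), which carries cargo into autophagosomes, at 902, 891 and 907 CPM in MPP+ and 442, 447 and 442 CPM in PBS (1.02 ± 0.051). Of 29 genes of sterol synthesis and uptake 22 (75.9%) fell and 2 rose, with 1 rise without knockout MPP+ 1 or MPP+ 2 or without both samples numbered 1. Idi1, an isomerase of the early pathway, had 5.07, 16.1 and 14.2 CPM in MPP+ and 68.6, 56.9 and 73.2 CPM in PBS (-2.49 ± 0.33). Hmgcs1, an early synthase, fell (-1.52 ± 0.057), as did Srebf2, the factor that drives the pathway (-1.02 ± 0.13). CCAAT occurred in 17 of 19 promoter windows of this list (89.5%) and TCACCCCAC, a sterol element, in 1 of 19 (5.26%), against 42.2% and 0.687% of all windows. Of the 2 that rose, Npc1, which moves cholesterol out of lysosomes, did so by 0.89 ± 0.12.

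Clock genes rose in both arms of the clock. Of 18 tested members 14 (77.8%) rose and 1 fell. Nr1d1 and Nr1d2, the Rev-erb repressors, rose by 1.03 ± 0.10 and 0.97 ± 0.080, and Arntl (Bmal1), which they repress, rose too (0.68 ± 0.071). Per1 rose by 0.85 ± 0.14, Cry1 by 1.05 ± 0.099 and Nfil3 by 1.55 ± 0.090. Ciart, a repressor of the clock, had 10.7, 14.4 and 14.0 CPM in MPP+ and 3.07, 4.52 and 3.08 CPM in PBS (1.87 ± 0.34). Each culture was taken at a single time, so no rhythm was measured.

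Genes that astrocytes use for their work in the brain fell. Of 29 genes of astrocyte homeostasis 24 (82.8%) fell, 16 at least 2-fold, and 0 rose, where 23.1% of all tested genes rose, and without both samples numbered 1 the counts were 24 and 0. Gfap, the filament of astrocytes, had 108, 91.9 and 81.3 CPM in MPP+ and 685, 929.9 and 692 CPM in PBS (-3.04 ± 0.17). Kcnj10 (Kir4.1), the potassium channel, had 313, 277 and 301 CPM in MPP+ and 1181, 1768 and 1416 CPM in PBS (-2.29 ± 0.12). Aqp4, the water channel, had 113, 119 and 102 CPM in MPP+ and 688, 858 and 728 CPM in PBS (-2.77 ± 0.094). In all of these the PBS samples varied among themselves and none reached the MPP+ range. Slc1a2, a glutamate transporter, fell (-1.33 ± 0.10), and so did Fabp7, a lipid carrier of glial progenitors (-2.64 ± 0.090). Gja1, the gap junction protein connexin 43, was not called, with 248, 191 and 201 CPM in MPP+ and 220.0, 202 and 237 CPM in PBS (-0.04 ± 0.20). Of 22 tested transcription factors of astrocytes and Id and Hes genes 12 fell and 3 rose: Id2, Id3 and Id4, which hold back differentiation, fell (-1.54 ± 0.27, -1.50 ± 0.13 and -1.45 ± 0.11), and Nfia, a factor of astrocyte fate, was not called (0.17 ± 0.18). Without knockout PBS 3, 1 of the 22 rose.

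**Figure D4:**
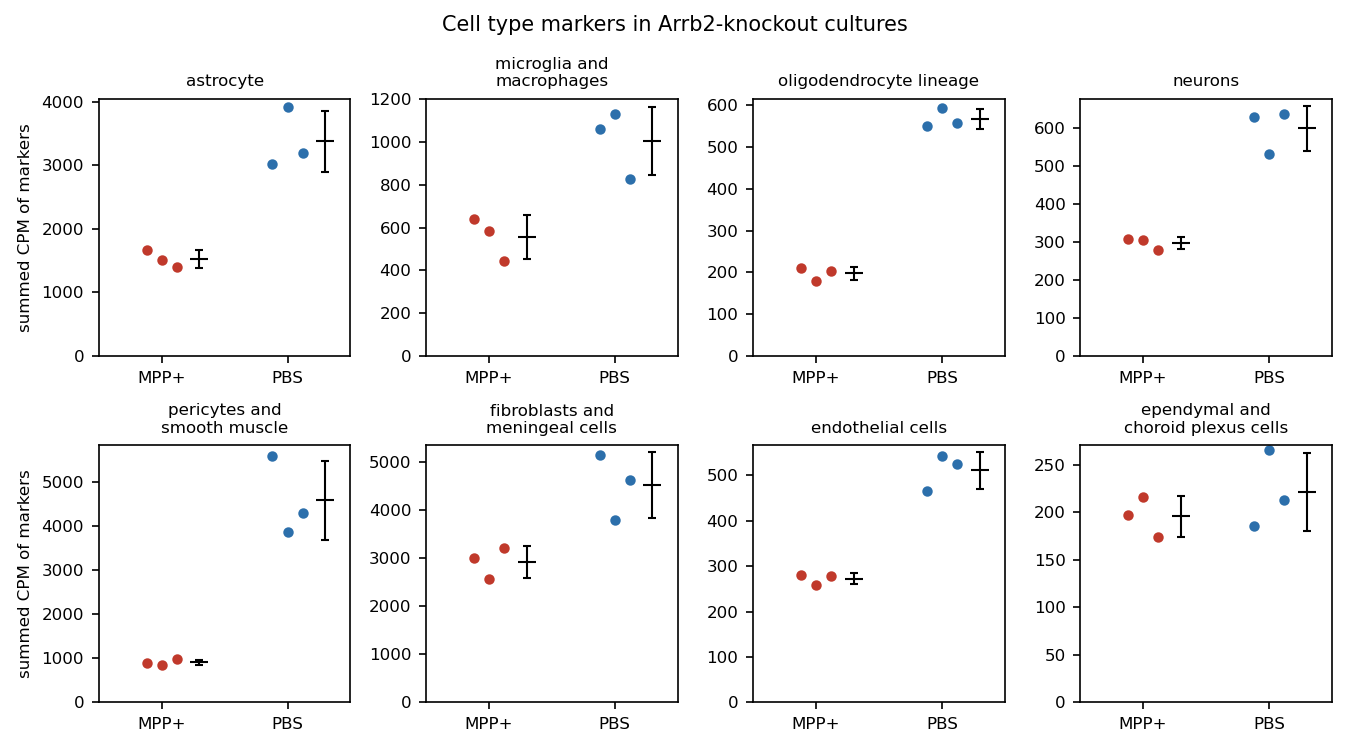
Summed level (y axis, CPM, linear from 0) of marker genes of 8 cell types in Arrb2-knockout cultures in MPP+ (red, left) and PBS (blue, right). Points are samples and the black mark is the mean with its SD; the groups do not overlap for 7 of the 8 types, and overlap for ependymal and choroid plexus cells.

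Summed markers of most other cell types were lower in MPP+, and their part in these results was not tested. Over all tested genes 24.7% fell. Summed markers of pericytes and smooth muscle ran from 852.9 to 974.5 CPM in MPP+ and from 3852 to 5583 CPM in PBS, with 7 of 9 called lower and Acta2, smooth muscle actin, at -2.28 ± 0.15. Microglia and macrophage markers ran from 441.6 to 641.2 CPM in MPP+ and from 825.5 to 1131 CPM in PBS. Of these 18, 10 fell and 1 rose, Csf1r, the growth factor receptor of these cells, at -1.20 ± 0.24 and the lysosomal Cd68 at 1.45 ± 0.22. Those of the oligodendrocyte lineage ran from 180.5 to 210.3 CPM in MPP+ and from 549.3 to 594.6 CPM in PBS (6 of 12 lower), and those of neurons from 279.0 to 307.9 CPM in MPP+ and from 529.9 to 635.4 CPM in PBS (6 of 11 lower, 1 higher). Dcx and Gad2, of young and inhibitory neurons, and Mobp, of myelin, had no counts in MPP+. Fibroblast markers ran from 2569 to 3218 CPM in MPP+ and from 3790 to 5158 CPM in PBS with 1 of 12 lower and 1 higher (up to 4 and 3 under other settings), and endothelial ones from 257.9 to 280.4 CPM in MPP+ and from 465.1 to 541.9 CPM in PBS with 3 of 10 lower. Ependymal and choroid plexus markers ran from 173.5 to 215.5 CPM in MPP+ and from 185.2 to 265.6 CPM in PBS, with 3 of 8 lower and 1 higher. Red blood cell markers summed to at most 0.433 CPM.

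Reactive and complement genes fell more often than they rose. Of 36 tested genes listed as pan-reactive, A1 or A2 (38 in the table) 19 (52.8%) fell and 4 rose. Vim, an intermediate filament, had 1996, 1729 and 1913 CPM in MPP+ and 3655, 3923 and 3683 CPM in PBS, Serpina3n, a secreted protease inhibitor, fell (-1.37 ± 0.12), and Ptx3, a secreted pattern recognition protein of the A2 list, rose to 67.1, 70.9 and 64.3 CPM in MPP+, against 33.7, 20.7 and 20.4 CPM in PBS (1.44 ± 0.18). Of 17 complement genes 14 (82.4%) fell and 3 rose. C4b fell to 16.6, 15.9 and 12.6 CPM in MPP+, against 36.7, 69.3 and 43.5 CPM in PBS (-1.73 ± 0.24), and C3, the central component, to 200.4, 250.4 and 171 CPM in MPP+, against 252, 638 and 407 CPM in PBS (-1.06 ± 0.29). The fall of C3 was -0.65 and not called without knockout PBS 2 (adjusted p = 0.0559). C2 rose (1.17 ± 0.11), and the rises in this list numbered 1 without any one of knockout MPP+ 3, PBS 1 and PBS 2. C1qa, C1qb and C1qc fell (-1.13 ± 0.27, -1.33 ± 0.25 and -1.11 ± 0.28), and the first 2 of these stand also in the microglia list above.

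Inflammatory and immediate early genes rose more often than they fell, with small list medians of 0.16 to 0.26. Of 33 genes of the interferon response and class I antigen presentation 9 (27.3%) rose and 2 (6.06%) fell, near the share of rises over all genes, with the antiviral Ifit3 at 1.16 ± 0.16 and the peptide transporter Tap1 at 1.20 ± 0.16. Without wild-type MPP+ 1, 5 of the 33 fell. Of 29 tested chemokines and NF-kappaB targets (30 in the table) 11 (37.9%) rose and 5 (17.2%) fell, where 23.1% of all tested genes rose. Ccl20, a chemokine for lymphocytes, had 0.397, 0.908 and 0.501 CPM in MPP+ and no counts in PBS, at least 40.0-fold higher, and Csf2, the growth factor GM-CSF, was at least 21.8-fold higher, both against a floor of 3 counts over the group. Il33, an alarmin, went down to 4.75, 3.98 and 4.01 CPM in MPP+, against 34.3, 34.1 and 37.8 CPM in PBS (-3.06 ± 0.22). Il6, Ccl2 and Cxcl1 were not called (1.85 ± 1.12, -0.11 ± 0.16 and 0.00 ± 0.47). Of 32 immediate early genes and MAP kinase feedback genes 13 (40.6%) rose and 6 (18.8%) fell. Klf4 had 67.2, 75.1 and 75.2 CPM in MPP+ and 14.7, 7.38 and 12.6 CPM in PBS (2.65 ± 0.21), and Egr2 fell (-2.16 ± 0.47). Fos was not called (-0.28 ± 0.19), and without knockout MPP+ 3 the rises in this list numbered 8.

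Genes around G protein-coupled receptors fell more often than they rose. Of 40 receptor kinases, RGS proteins and glial receptors of this kind 21 (52.5%) fell and 3 rose, with 6 rises without PBS 1. S1pr3, a sphingosine phosphate receptor, had 90.02, 84.1 and 72.2 CPM in MPP+ and 183, 290.0 and 204 CPM in PBS (-1.46 ± 0.19), and Lpar1, a lysophosphatidic acid receptor, fell (-1.78 ± 0.077). Grk2, a kinase that prepares receptors for arrestin, rose slightly (0.26 ± 0.064), Grk3 fell (-0.89 ± 0.12), and Grk5 was not called (-0.08 ± 0.11). Of the 8 tested genes of monoamine handling and MPP+ transport (16 in the table) 3 rose and 1 fell. Maob, which makes MPP+ from its precursor, fell to 3.33, 3.03 and 3.17 CPM in MPP+, against 8.07, 9.35 and 9.94 CPM in PBS (-1.52 ± 0.18), while Maoa, the other monoamine oxidase, rose to 328, 302 and 325 CPM in MPP+, against 145, 135 and 143 CPM in PBS (1.18 ± 0.068). Slc18a2, the vesicular transporter that stores monoamines and MPP+, rose by 1.13 ± 0.26. Of 23 receptors of growth factors and the Il6 family 5 rose and 12 (52.2%) fell, with Met, the receptor of hepatocyte growth factor, at 1.35 ± 0.14 and Fgfr2 at -1.20 ± 0.054, and 3 rose without both samples numbered 1.

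Secreted factors split between stress peptides and factors of synapse building. Of 19 tested stress-induced secreted peptides (21 in the table) 11 rose and 5 fell, with 3 falls without MPP+ 2 or PBS 2. Adm2, a hormone of the calcitonin family, had 5.27, 4.80 and 3.08 CPM in MPP+ and no counts in PBS, at least 293-fold higher, and Ostn, a peptide known from bone and muscle, had 2.91, 3.16 and 3.33 CPM in MPP+ and no counts in PBS, at least 208-fold higher, both against a floor of 3 counts over the group. Stc2, a secreted glycoprotein of the stress response, rose by 3.02 ± 0.21, and Fgf21, a hormone of mitochondrial stress, had 1.29, 2.19 and 1.46 CPM in MPP+ and 0.0599, 0 and 0 CPM in PBS. Of 25 synapse-forming and neurotrophic factors 13 (52.0%) fell and 3 rose. Thbs1, thrombospondin 1, had 478, 388 and 549 CPM in MPP+ and 2204, 1476 and 1795 CPM in PBS (-1.95 ± 0.19). Ptn, pleiotrophin, had 25.5, 21.2 and 19.98 CPM in MPP+ and 188, 224 and 204 CPM in PBS (-3.21 ± 0.14), and Sparcl1 (hevin) fell (-1.68 ± 0.13). Gdnf, which sustains dopamine neurons, rose to 5.22, 5.002 and 5.91 CPM in MPP+, against 2.36, 1.86 and 2.26 CPM in PBS (1.31 ± 0.18), and Bdnf was not called (0.43 ± 0.26). Of 45 matrix genes 19 (42.2%) fell and 2 rose, with Col11a1, a fibrillar collagen, at -3.07 ± 0.21 and Bcan, brevican, at -0.86 ± 0.11, while Fn1, fibronectin, and Col1a2 were not called (0.13 ± 0.17 and 0.12 ± 0.46).

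After the mitochondrial ribosomal RNAs, the largest gains in mean CPM were in Hspa9, Hmox1, mt-Atp6, Slc3a2, Ccng1, Ftl1, Ctsl and Ctsd. Apart from mitochondrial messenger RNAs, the 10 largest losses held Igfbp5, which binds insulin-like growth factors, with 892, 770.0 and 887 CPM in MPP+ and 9627, 9996 and 9538 CPM in PBS (-3.52 ± 0.084), and Pea15a, an astrocyte phosphoprotein, with 2688, 2365 and 2583 CPM in MPP+ and 7479, 7413 and 7008 CPM in PBS (-1.52 ± 0.062). Several of the largest folds were in genes near 0 in one group. Otog, known from membranes of the inner ear, had 15.5, 14.4 and 14.0 CPM in MPP+ and no counts in PBS, at least 974-fold higher, and Sstr5, a somatostatin receptor, had 3.22, 2.12 and 3.11 CPM in MPP+ and no counts in PBS, at least 187-fold higher. Car6, a secreted carbonic anhydrase, rose by 7.08 ± 1.11. On the side of falls, Epo, the hormone erythropoietin, had no counts in MPP+ and 2.51, 2.22 and 2.23 CPM in PBS, at least 161-fold lower. Its call was lost without any one of the 6 knockout libraries (adjusted p up to 0.0761). In wild type Epo varied within both treatments, with 0.990, 0 and 0 CPM in MPP+ and 0, 0 and 2.11 CPM in PBS. Pcdhb21, a protocadherin, had no counts in MPP+ and 4.58, 5.16 and 0.381 CPM in PBS, at least 235-fold lower over the group. The third PBS sample was far under the others, and in wild-type PBS Pcdhb21 had 0.343, 0 and 0 CPM. Steap4, a metal reductase, had 0.170, 0.461 and 0.118 CPM in MPP+ and 13.6, 20.3 and 15.6 CPM in PBS (-6.04 ± 0.57), Slco1a1, an organic anion transporter, fell (-6.64 ± 0.56), and so did Grin2b, an NMDA receptor subunit (-6.70 ± 1.10).

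The response of the knockout was set beside that of wild type by testing the difference of their MPP+ effects. In wild type 11667 genes (55.2%) were called, 5656 (26.8%) higher and 6011 (28.4%) lower. The difference was called for 285 genes (1.35%), of which 127 (0.601%) were higher in the knockout and 158 (0.748%) lower. These counts depended on single libraries: without any one library 35 to 759 were called higher and 24 to 794 lower, both most without wild-type MPP+ 1, fewest higher without wild-type PBS 2 and fewest lower without knockout PBS 3, and each library moved at least 1 of the counts by over 1.5 times. Without both knockout samples numbered 1, 7 and 5 were called. With a replicate block within genotype, though the labels do not pair the numbers, 15 were called higher and 17 lower. The wild-type libraries held at most 0.230 CPM of the 4 Y-linked genes, so genotype and the sex of the cultures cannot be told apart in this comparison. Of the lists, mitosis genes had a median of -3.77 in the knockout and -3.27 in wild type, with 6 of 38 differences called lower, p53 targets 0.89 and 1.36 with 5 of 24 called lower, Nrf2 and glutathione genes -0.06 and -0.14 with 5 of 36 called higher, and cytosolic ribosomal proteins 0.11 and 0.46 with 1 of 86 called lower.

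A few genes held this call under every omission of a single library, and of those described here Tenm2 and Pttg1 held it under all alternatives. The call was lost without both knockout samples numbered 1 for Medag, Rgs4 and Mdm2 (adjusted p up to 0.085). Tenm2, a teneurin that links cells across synapses, had 8.39, 9.11 and 6.59 CPM in MPP+ and 0.284, 0.104 and 0.290 CPM in PBS in the knockout (5.14 ± 0.40) and 0.591, 0.393 and 0.323 CPM in MPP+ and 0.715, 0.410 and 0.676 CPM in PBS in wild type, a difference in log2 effect of 5.60 ± 0.53 (adjusted p = 0.00154). In wild type its log2 fold change was -0.46, and every knockout MPP+ sample lay above all other samples of the series. Medag, known from fat cell differentiation, had 61.2, 45.7 and 83.7 CPM in MPP+ and 30.4, 24.0 and 37.6 CPM in PBS in the knockout and 7.21, 3.99 and 5.02 CPM in MPP+ and 14.3, 16.3 and 15.2 CPM in PBS in wild type (2.55 ± 0.35). Pttg1, securin, which guards sister chromatids, had 5.41, 6.33 and 3.85 CPM in MPP+ and 27.2, 17.6 and 19.5 CPM in PBS in the knockout and 40.04, 57.4 and 46.6 CPM in MPP+ and 35.2, 34.8 and 35.8 CPM in PBS in wild type (-2.49 ± 0.28). Of these 3, only Medag and Tenm2 were higher in knockout MPP+ than in knockout PBS. Rgs4, which shortens G protein signals, had 3.10, 1.80 and 3.21 CPM in MPP+ and 3.65, 4.60 and 3.04 CPM in PBS in the knockout, where it was not called (-0.48 ± 0.29), and 0.399, 0.181 and 0.246 CPM in MPP+ and 3.40, 4.72 and 4.07 CPM in PBS in wild type (3.40 ± 0.44). Mdm2, the ubiquitin ligase that limits p53, rose in the knockout to 291, 317 and 304 CPM in MPP+, against 157, 159 and 181 CPM in PBS (0.88 ± 0.087), with 326, 398 and 415 CPM in MPP+ and 118, 113 and 113 CPM in PBS in wild type (-0.85 ± 0.12).

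**Figure D5:**
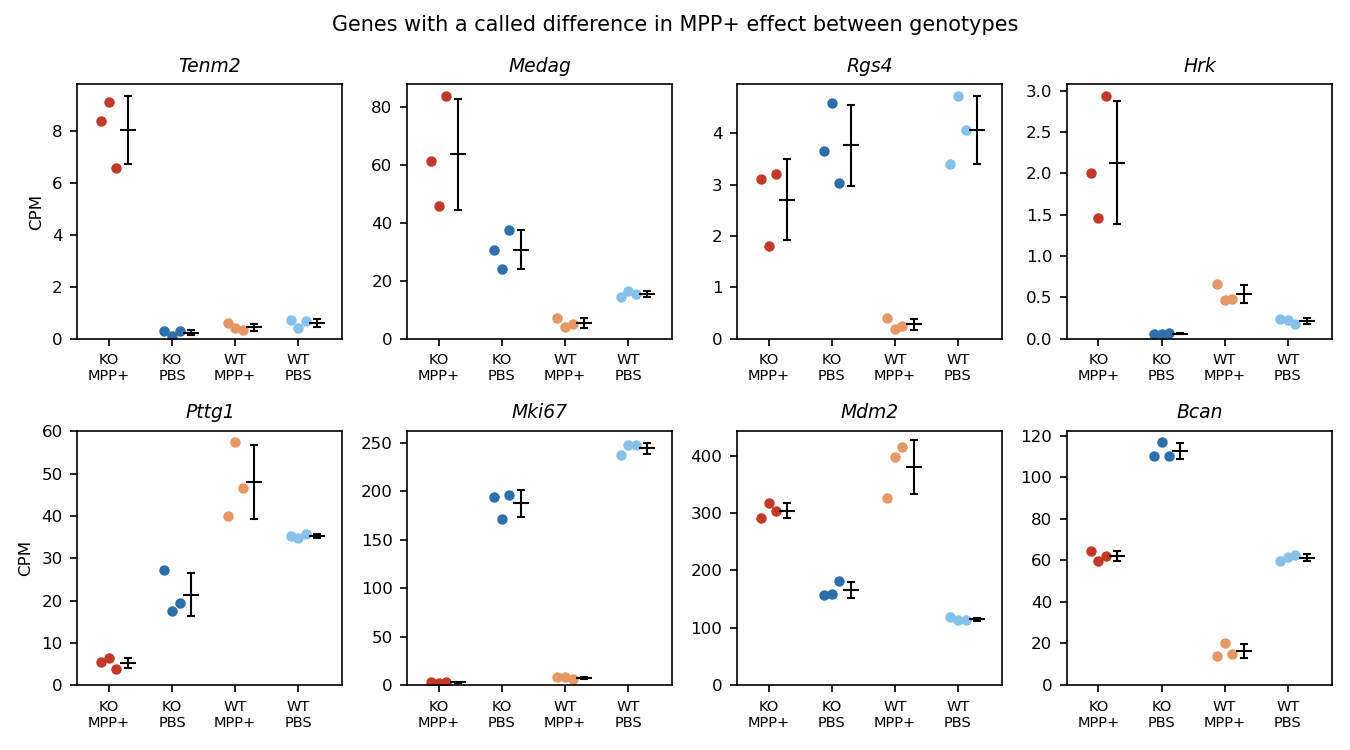
Level (y axis, CPM, linear from 0) of 8 genes whose MPP+ effect differed between genotypes by an interaction test, in knockout MPP+, knockout PBS, wild-type MPP+ and wild-type PBS cultures (left to right). Points are the 3 samples of a group and the black mark is their mean with its SD. Tenm2 is high in knockout MPP+ alone, and Rgs4 is low in wild-type MPP+ alone. Hrk is highest in knockout MPP+ and is also higher in wild-type MPP+ than in wild-type PBS.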

How the data were processed

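RNA-seq of 12 cultures was analysed, 3 in each of 4 groups. Per the file headers, the authors deposited unnormalized counts for each gene next to FPKM values of their own. The submitters' processing notes name the builds GRCm38 and mm10, while aligner, counter and strand setting were not given in the sources used here. Per the labels' protocols, libraries were made from mRNA with a SMARTER kit.

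Counts of all 12 samples were fitted together with 4 group means in edgeR 4.0.16 (R 4.3.3, quasi-likelihood, TMM, 8 residual degrees of freedom), after edgeR's filterByExpr with a minimum count of 10 and a minimum total of 15. Adjusted p-values are Benjamini-Hochberg values over the 21129 tested genes. The contrasts were MPP+ against PBS in the knockout, the same in wild type, and their difference. FPKM served for levels of gene groups, and in limma 3.58.1 on log2(FPKM + 0.1) as an alternative. DESeq2 1.42.0, other scalings, filters, sample sets, a replicate block and leaving out each library were further alternatives. The groups compared are the labelled ones. The fit was also run on simulated counts of 20459 fitted genes with 3 samples a group. In each direction 50 genes were changed 2-fold, drawn from genes above the lowest levels. The fit recovered 72% of these rises and 70% of these falls, and called 8 of 20259 unchanged genes. Far fewer genes were changed there than were called in the real contrast, so these shares need not hold for it.

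The 49 functional and 10 marker lists held 1425 matched symbols, of which 1383 were tested, and 6 further symbols were not matched. The members and lists were chosen with earlier results of these data known. Genes were named by a rule: Arrb2 and Arrb1, chosen anchors of each list with its largest called rise and fall, the 10 largest folds, gains and losses in CPM each way among called genes, and the 10 largest interactions. In addition, 42 list members were named after their values were seen. A few genes that the rule selects are not reported here. Promoter windows came from RefSeq, matched by gene.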

Additional observations from a re-analysis of the deposited data

Results flagged for a closer look

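For 28 of the named genes a test of the difference between the MPP+ effects of the knockout and of wild type passed an adjusted p of 0.05 (edgeR's quasi-likelihood test, Benjamini-Hochberg over all genes). Values are the knockout effect minus the wild-type effect in log2 units. Genotype and the sex of the cultures cannot be told apart here. The call held under all 21 alternatives for 2 of the 28, Tenm2 and Pttg1, and without each library in turn for 8 of the 28, which are these 2 and Bcan, Hrk, Mdm2, Medag, Mki67 and Rgs4.

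The difference was positive for 17 genes. Tenm2 stood at 5.60. Hapln1, a link protein of the matrix, stood at 6.43, with -4.38 in the knockout, but it had no counts in wild-type MPP+, so this fitted value depends on the prior count. Adamts15, a matrix protease, stood at 3.97, Hrk at 3.76 (5.10 in the knockout and 1.35 in wild type), Rgs4 at 3.40, Sntg2, a syntrophin, at 3.14 and Medag at 2.55. Ackr3, a chemokine receptor that signals through beta-arrestin, stood at 1.36 (-0.82 in the knockout and -2.19 in wild type) and the A2 gene Ptx3 at 1.25. Astrocyte genes among them were Bcan at 1.04, Id4 at 1.03 and Aldh1l1 at 0.66, each lower in MPP+ in both genotypes. Antioxidant genes were Nqo1 at 0.94, the glutathione enzyme Gclm at 0.57 and the catalase gene Cat at 0.42. The other two were mt-Nd6 at 0.87 and the stress factor Atf3 at 0.77 (1.92 in the knockout and 1.15 in wild type).

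The difference was negative for 11 genes. Foxl2, a transcription factor known from the ovary, stood at -3.02 (0.57 in the knockout and 3.59 in wild type), and Moxd1, a monooxygenase, at -2.68. Genes of division were Pttg1 at -2.49, Plk1 at -1.18 and Mki67 at -1.14. Targets of p53 were Mdm2 at -0.85 and the death receptor Tnfrsf10b at -0.71. Genes of growth factor signalling were Dusp6 at -0.68, Egfr at -0.64 and Vegfa at -0.58. Icam1, an adhesion molecule, stood at -0.62.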

How the results depend on the processing

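The counts of genes changed by MPP+ in the knockout moved by less than 1.5 times under each of 22 alternatives. Higher calls numbered 4226 to 5746 and lower calls 4223 to 5705, and 80.4% to 99.9% of the calls were kept. Without each library in turn, 4323 to 5015 genes were called higher and 4567 to 5480 lower, and 3632 to 4100 were called at least 2-fold. Sizing by plain library totals gave 5487 higher and 4715 lower, and limma on FPKM gave 5746 and 4954, so higher calls made up 53.8% and 53.7%, against 48.3% in the fit reported. No scaling moved the median of all genes by over 0.1. Of the 384 named genes called in the knockout, 336 were called under every alternative, and none reversed. The counts in gene lists stayed within 1.5 times in 2459 of 2596 cases and moved beyond it in 137. The difference between genotypes was less stable. Without the filter on low counts 84 genes were called higher and 64 lower, with a stricter filter 226 higher, and with DESeq2 701 and 706. Leaving out a library gave 35 to 759 higher and 24 to 794 lower, and without both knockout libraries numbered 1, an alternative chosen after seeing the data, 7 and 5. The cause was not tested. Shares of counts by RNA class moved by less than their SD. The replicate numbers are not stated to pair samples, and same-numbered knockout samples deviated together weakly (correlations of 0.048, 0.019 and 0.024), though each MPP+ sample of the knockout correlated best with its own number among knockout PBS samples. With a replicate block within genotype, 4627 genes were called higher and 4951 lower in the knockout, 5398 and 5755 in wild type, and 15 and 17 for the difference. Depth limits genes near 0, for which folds are given as bounds.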
